A study of Mus musculus with 6 samples.

Results

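Store-operated and mitochondrial calcium entry were followed through 8 genes, taken by symbol from the 46983 genes in the deposited tables: the endoplasmic reticulum calcium sensors Stim1 and Stim2, the plasma membrane channels Orai1, Orai2 and Orai3, the mitochondrial uniporter pore Mcu, its gatekeeper Micu2, and the mitochondrial exporter Slc8b1. All 8 passed the filter on low counts. RNA was sequenced from whole E13.5 mouse hearts on a C57BL/6 x DBA/2 background, 1 heart per library, with 3 mutant hearts (labelled TnnT2Cre;Wt1flox, replicates 1, 5 and 10) and 3 control hearts (labelled wild type, replicates 2, 3 and 5). By the study's methods both Wt1 alleles were floxed in every embryo, and the controls lacked the Tnnt2 Cre transgene. The Tnnt2 promoter drives Cre in the cardiomyocyte lineage and also in a fraction of the epicardium, so Wt1 is removed from part of a heart only. The comparison asks whether calcium entry genes were expressed at another level in hearts without myocardial Wt1.

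In store-operated entry, STIM proteins sense the loss of calcium from the endoplasmic reticulum, gather at contacts with the plasma membrane and open ORAI channels, which refill the store and can feed calcineurin and NFAT signalling. Mitochondria take up calcium through a uniporter whose pore is MCU, with the MICU proteins as calcium-sensing gates, MCUB as a dominant-negative pore subunit and EMRE (Smdt1) as the linker between pore and gate. The exchanger encoded by Slc8b1 (NCLX) returns calcium to the cytosol. In cardiomyocytes the uniporter is known for matching ATP supply to the beat, while store-operated entry is best known from immune cells and platelets.

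The channel and pore families are related in sequence, so the annotated transcripts (GENCODE M21) were compared for runs of bases that a read could not tell apart. The longest run that 2 paralogs shared exactly anywhere in their transcripts was 29 bases, between Orai2 and Orai3. It lies in the coding sequence, and it is shown because it holds the codon of the glutamate known as the selectivity filter of the ORAI pore (capitals). Mcu and Mcub shared at most 12 bases, and 11 within their coding sequences, in a stretch that belongs to the pore motif known for calcium selectivity (the codon of a glutamate in capitals).
Orai2 and Orai3: ggcttcgccatggtggccatggtgGAGgt
Mcu and Mcub: atcatgGAGcc
For the other pairs the longest run was 15 bases in Stim1 and Stim2, 18 in Orai1 and Orai2, 17 in Orai1 and Orai3, and 15 in Micu2 and Micu3. These runs are far shorter than the sequenced reads, and only uniquely mapped reads were counted. Among the 8 genes, an exon of another annotated gene touched only Orai1, where the opposite strand gene Gm2479 shared 7 exon bases.

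The gene deleted in the mutant encodes WT1, a zinc finger transcription factor known to bind GC-rich sites, and the 250 bases before the RefSeq start site (GRCm38.p6) were therefore read in 7 of the genes, Slc8b1 having no entry in the table used. The letters GCGTGGG and GCGGGGG, which resemble sites of WT1 and of the related EGR factors, were searched on both strands. Either was present in 4 of the 7 windows (Stim1, Stim2, Orai1 and Orai2), and in 13.0% of 32851 windows over all genes. The 7 windows were also richer in G and C, at 57.2% to 78.4% against a median of 52.4%, and the share was not compared at equal base content. The windows of Stim1, Stim2 and Orai1 are printed because they hold these letters in both sensors and in the channel subunit described first, with the matches in capitals. They lie at chr7:102267569-102267818, chr5:53998273-53998522 and chr5:123014824-123015073, all on the plus strand.
Stim1: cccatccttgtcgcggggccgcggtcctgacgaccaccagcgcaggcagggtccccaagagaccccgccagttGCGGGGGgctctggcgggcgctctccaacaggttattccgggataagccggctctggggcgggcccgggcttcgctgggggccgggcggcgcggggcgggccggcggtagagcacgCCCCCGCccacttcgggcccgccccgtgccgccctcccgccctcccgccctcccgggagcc
Stim2: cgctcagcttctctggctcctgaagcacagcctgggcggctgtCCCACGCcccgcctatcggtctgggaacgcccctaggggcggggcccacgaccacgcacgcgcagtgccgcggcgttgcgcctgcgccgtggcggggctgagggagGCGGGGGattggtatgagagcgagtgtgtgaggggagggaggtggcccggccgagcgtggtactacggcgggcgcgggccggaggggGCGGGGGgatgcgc
Orai1: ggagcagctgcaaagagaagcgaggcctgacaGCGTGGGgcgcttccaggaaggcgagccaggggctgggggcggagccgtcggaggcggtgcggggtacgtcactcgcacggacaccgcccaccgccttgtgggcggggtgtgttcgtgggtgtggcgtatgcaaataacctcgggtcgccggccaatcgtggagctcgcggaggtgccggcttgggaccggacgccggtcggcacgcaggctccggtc
Stim1 held 2 such matches, Stim2 3 and Orai1 1, while Orai3, Mcu and Micu2 held 0 in this window. GCGGGGG can share bases with the GC box letters GGGCGG, which were present in 6 of the 7 windows and in 32.7% of all windows. TATAAA was present in 0 of the 7, and in 12.4% of all. A match describes letters only, and no binding was measured in these hearts.

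The libraries held 44244665 to 56373393 counts, of which the 8 genes had from 275 (Orai2) to 8237 (Micu2) each in a heart. Wt1 itself stood at 20.9, 17.3 and 10.2 FPKM in wild type replicates 2, 3 and 5 and at 9.29, 17.2 and 17.4 FPKM in mutant replicates 1, 5 and 10, so the groups overlapped. Counts over the whole gene cannot tell transcripts of recombined alleles from those of intact ones. The cardiomyocyte troponin Tnnt2 stood at 3130 to 3221 FPKM in wild type and 3332 to 3363 FPKM in mutant hearts. Its groups did not overlap, as in 11.2% of all genes tested (log2 difference 0.11, standard error 0.12, edgeR adjusted p = 0.985). The 10 cardiomyocyte markers were all detected. Wild type replicate 5 stood apart from the other hearts, with lower relative levels of long genes (Spearman's rho of −0.556 between gene length and deviation from the mean over 11795 genes, against −0.0622 to 0.464 in the other hearts), and the fold changes of the 8 genes are given with and without it where this moved them by over 1.5 times. The p-values set a difference between groups against the spread between these hearts. In whole hearts fewer cells of a type and less RNA per cell cannot be told apart.

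All 8 calcium entry genes were expressed in every heart, and for none of them was a difference between mutant and wild type hearts detected beyond the spread between replicates. By edgeR (quasi-likelihood test on the counts, Benjamini-Hochberg adjustment), 0 of the 8 passed an adjusted p of 0.05 (background: 0% of 17473 genes tested), and 0 had an unadjusted p under 0.05 (background 5.73%). DESeq2 also called 0 of the 8 (background 0.69%). The values of the groups overlapped for every one of them, whereas they did not overlap in 11.2% of all genes tested. The log2 fold changes of mutant over wild type lay between −0.13 in Slc8b1 and 0.034 in Micu2, with standard errors of 0.10 to 0.17. A change no larger in size than 0.13, the largest among the 8, was found in 50.1% of all genes tested. Their 95% intervals, which are not adjusted for 8 genes, reached from a level 29.9% lower to one 20.8% higher at the widest, so larger differences lay outside the interval of each gene.

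**Figure D1:**
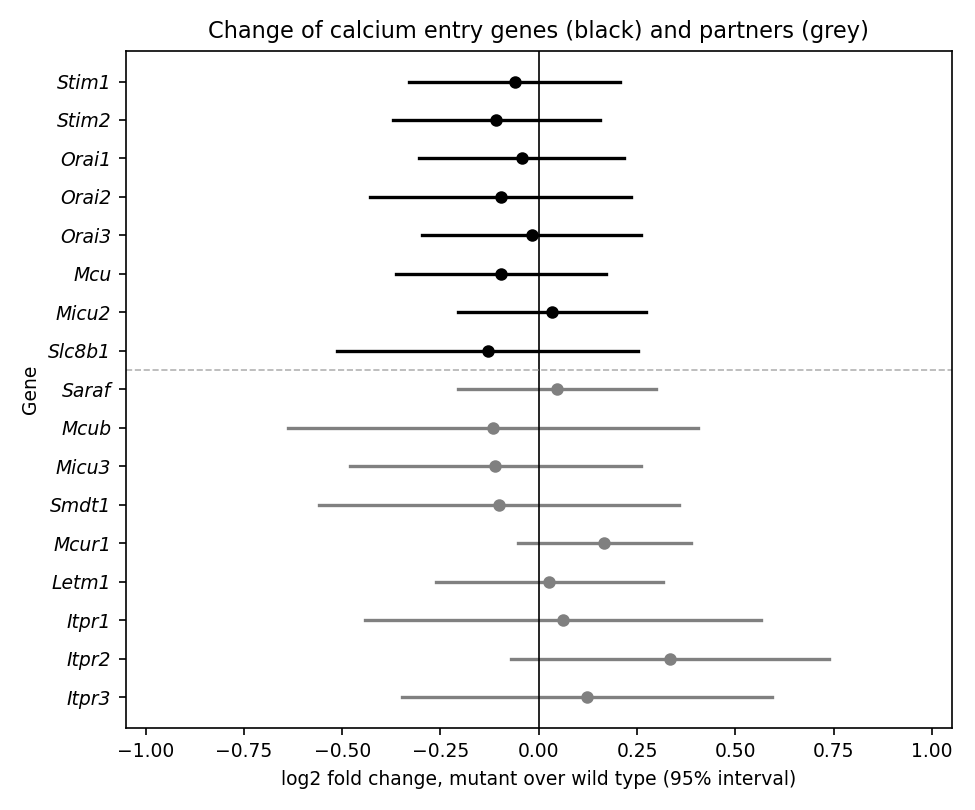
The log2 fold change of mutant over wild type (horizontal axis) with its 95% interval from edgeR's quasi-likelihood fit, for the 8 calcium entry genes in black and for 9 partners in grey (3 hearts per group). Every interval shown crosses 0, and the points of the 8 genes lie between −0.13 and 0.034.

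The sensors came first in the order of the pathway. Stim1 (ENSMUSG00000030987, chromosome 7 from 102267806 to 102437319, GRCm38) had 5.07, 5.35 and 4.39 FPKM in wild type replicates 2, 3 and 5 and 4.37, 4.98 and 4.55 FPKM in mutant replicates 1, 5 and 10. The lowest hearts were 1 of each group, and the groups overlapped throughout. Mutant over wild type, the level differed by −0.061 on the log2 scale (standard error 0.12, edgeR adjusted p = 0.985). With 1 heart left out this ran from −0.0012 (mutant replicate 1) to −0.13 (wild type replicate 5), and with the trend of gene length corrected it was −0.12.

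Stim2, the sensor known to respond to smaller losses of stored calcium (ENSMUSG00000039156, chromosome 5 from 53998499 to 54121057), had 9.65, 9.41 and 7.60 FPKM in wild type replicates 2, 3 and 5 and 8.55, 7.92 and 7.78 FPKM in mutant replicates 1, 5 and 10. Wild type replicates 2 and 3 were above every mutant heart, while wild type replicate 5 was below them all. The difference was −0.11 on the log2 scale (standard error 0.11, edgeR adjusted p = 0.985). It moved to −0.20 without wild type replicate 5, with an unadjusted edgeR p of 0.0512, the smallest that any of the 8 genes had in any fit, and to −0.045 when wild type replicate 2 was left out. Within each heart Stim1 stood at 0.512 to 0.629 of the FPKM of Stim2, below 1 in all 6 hearts.

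Of the channels, Orai1, the subunit that forms the classical calcium release-activated channel (ENSMUSG00000049686, chromosome 5 from 123015074 to 123030456), had 11.71, 13.32 and 14.01 FPKM in wild type replicates 2, 3 and 5. The mutant hearts had 12.3, 12.4 and 12.4 FPKM and all lay within the range of the wild type hearts. The log2 difference of −0.044 (standard error 0.11, edgeR adjusted p = 0.990) became −0.12 when wild type replicate 2 was left out and 0.024 when wild type replicate 5 was.

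Orai2, a subunit known to dampen the channel when mixed with Orai1 (ENSMUSG00000039747, chromosome 5 from 136147459 to 136170713, minus strand), was the lowest of the 8 genes. It had 2.16, 2.39 and 2.29 FPKM in wild type replicates 2, 3 and 5 and 1.98, 2.17 and 2.11 FPKM in mutant replicates 1, 5 and 10. Only wild type replicate 2 lay among the mutant hearts. The groups differed by −0.097 (log2, standard error 0.14, edgeR adjusted p = 0.985), and by −0.040 when mutant replicate 1 was left out.

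Orai3, the family member found in mammals only (ENSMUSG00000043964, chromosome 7 from 127769815 to 127775150), had 10.6, 10.2 and 12.1 FPKM in wild type replicates 2, 3 and 5 and 10.6, 11.8 and 9.63 FPKM in mutant replicates 1, 5 and 10. The highest heart was wild type and the lowest mutant, with the rest mixed. The log2 difference was −0.018 (standard error 0.12, edgeR adjusted p = 0.995) and had no fixed sign, being 0.068 when wild type replicate 5 was left out and 0.024 when mutant replicate 10 was.

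Summed over the channel family, Orai1 gave 47.0% to 51.5% of the ORAI FPKM in a heart, Orai3 39.5% to 44.7%, and Orai2 7.99% to 9.22%. The mean share of Orai1 was 49.5% ± 1.79 in wild type and 49.3% ± 2.23 in mutant hearts (SD, n = 3 per group). That of Orai3 was 41.8% ± 2.09 and 42.4% ± 2.47, so for both the groups differed by less than the SD within either. That of Orai2 was 8.70% ± 0.588 and 8.32% ± 0.372, a difference smaller than the SD in wild type but not in mutant hearts.

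**Figure D2:**
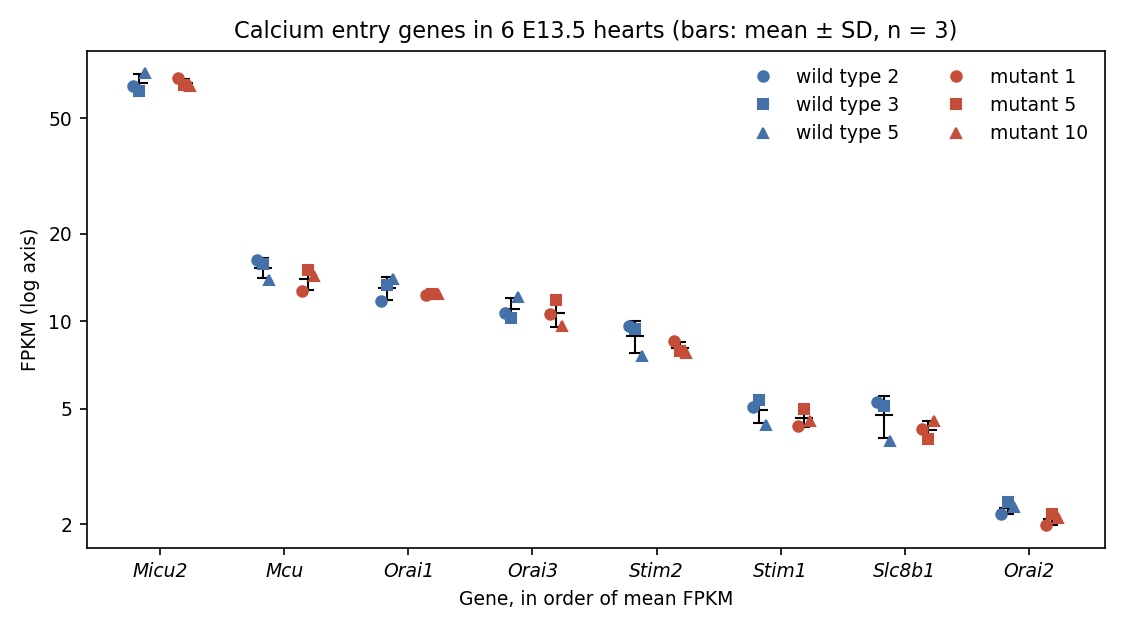
FPKM on a log axis for the 8 genes in each of the 6 hearts, with wild type in blue, mutant in red and a bar for the mean ± SD of each group (n = 3). Micu2 stands at 61.9 FPKM or more in every heart and Orai2 at 2.39 or less, and the colours overlap in every gene.

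In the mitochondrion, Mcu (ENSMUSG00000009647, chromosome 10 from 59446984 to 59616692, minus strand) had 16.22, 15.71 and 13.89 FPKM in wild type replicates 2, 3 and 5 and 12.67, 14.98 and 14.28 FPKM in mutant replicates 1, 5 and 10. Mutant replicate 1 was the lowest heart, and wild type replicate 5 lay among the mutant hearts. On the log2 scale the groups differed by −0.096 (standard error 0.12, edgeR adjusted p = 0.985), by −0.011 with mutant replicate 1 left out, and by −0.15 with wild type replicate 5 left out.

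Micu2, which encodes a gate of the uniporter (ENSMUSG00000021973, chromosome 14 from 57916261 to 57999262, minus strand), was the highest of the 8 genes. It had 64.2, 61.9 and 71.3 FPKM in wild type replicates 2, 3 and 5 and 68.6, 64.9 and 64.6 FPKM in mutant replicates 1, 5 and 10, all of the latter within the wild type range. It was the one gene of the 8 with a positive log2 difference, 0.034 (standard error 0.10, edgeR adjusted p = 0.990), which became −0.013 with wild type replicate 3 left out and 0.11 with wild type replicate 5 left out.

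Slc8b1, the exporter (ENSMUSG00000032754, chromosome 5 from 120511168 to 120534024), had 5.28, 5.09 and 3.86 FPKM in wild type replicates 2, 3 and 5 and 4.25, 3.94 and 4.52 FPKM in mutant replicates 1, 5 and 10. As with Stim2, wild type replicates 2 and 3 were the highest hearts and wild type replicate 5 the lowest. Its coefficient of variation over the 6 hearts, 12.7%, was the largest of the 8. The log2 difference, −0.13 (standard error 0.17, edgeR adjusted p = 0.985), was −0.25 without wild type replicate 5, and −0.047, −0.081 and −0.079 when wild type replicate 2, wild type replicate 3 or mutant replicate 5 was left out in turn.

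Although 7 of the 8 genes had a lower mean in the mutant (50.2% of all genes tested were lower), none had an unadjusted edgeR p under 0.05. In FPKM the group means of Orai2 and of Mcu differed by more than the SD within either group. Those of the other genes differed by less than the SD in wild type hearts. For Mcu this depended on the scale. In TMM-scaled CPM it had 25.77 ± 1.77 in wild type and 24.11 ± 2.51 in mutant hearts (SD, n = 3 per group), closer than either SD. The log2 difference of Orai2, −0.097, was larger in size than its root mean square deviation over the 6 hearts, 0.086 (log2 CPM). For each of the other genes it was smaller. The median of the 8 log2 fold changes was −0.079, against −0.0010 over all genes tested. The median absolute log2 fold change was 0.079, against 0.093 in the 9979 tested genes whose mean level lay in the range of the 8. Mutant replicate 1 was below the mean of the hearts in 7 of the 8 genes, by up to 0.23 (log2), whereas mutant replicate 10 was below it in 2. Without mutant replicate 1 the median of the 8 moved to −0.014, with 6 genes lower, and without wild type replicate 5 to −0.11, with 5 lower. The median coefficient of variation over the hearts was 7.94% in the 8 genes and 11.4% in the 9979, with Slc8b1 above the latter, and the difference was not tested.

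**Figure D3:**
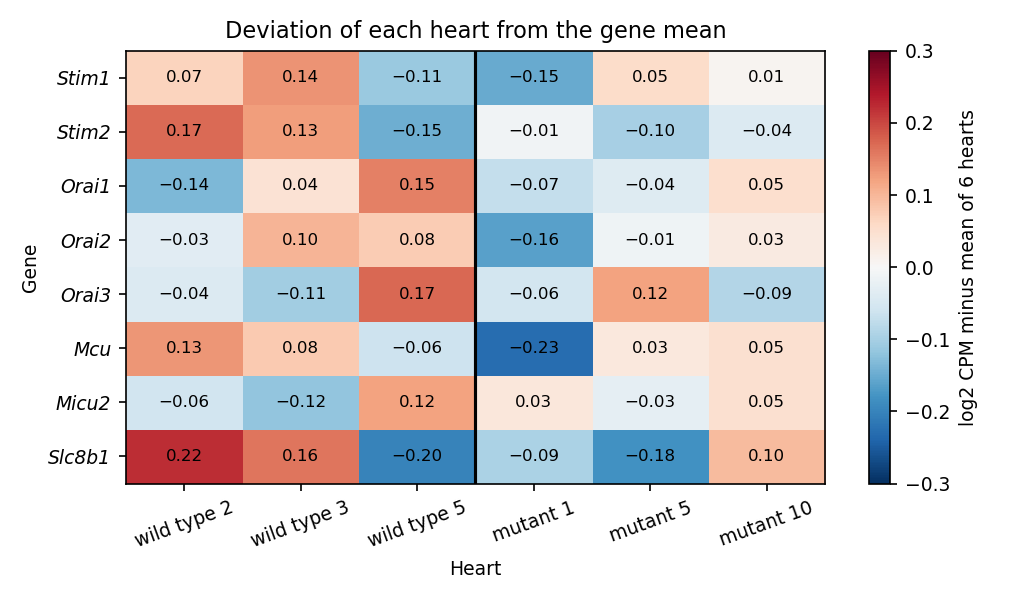
Each cell gives the log2 CPM of a gene in a heart minus its mean over the 6 hearts, with red above and blue below the mean and a line between the wild type (left) and mutant hearts (right). Stim1, Stim2, Mcu and Slc8b1 are above their means in wild type replicates 2 and 3 and below them in wild type replicate 5. In that heart Orai1, Orai2, Orai3 and Micu2 are above theirs.

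Levels were next compared between genes, per length. On the FPKM scale the order ran from Micu2 through Mcu, Orai1, Orai3, Stim2, Stim1 and Slc8b1 to Orai2, from the 89.3rd to the 31.5th percentile of mean FPKM among the genes tested. Micu2 was above Mcu in all 6 hearts, with medians of 64.8 and 14.6 FPKM. Mcu was above Orai1 in 5 hearts and Stim1 above Slc8b1 in 5, so neither pair had a fixed order. The ranges of Orai1 and Orai3 overlapped, as did those of Orai3 and Stim2, although the first was the higher within each heart. The gaps from Stim2 to Stim1 and from Slc8b1 to Orai2 were wider than the spread over hearts.

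This order depends on the length assumed for a gene. The deposited FPKM rest on 1 fixed length per gene, for example 1705 bases in Mcu and 3597 in Stim1, while the union of their annotated exons is 6936 and 10371 bases. Per union exon length, an alternative chosen after the data were seen, Mcu moved from the second to the fifth place and Stim1 from the sixth to the seventh. Orai1 was then above Orai3 in 2 of 6 hearts. Micu2 was first and Orai2 last on both scales, and neither scale alters a comparison of 1 gene between groups.

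Ratios within a heart cancel the depth and compare the RNA levels of 2 genes, not the makeup of protein complexes. The uniporter pore Mcu stood at 5.33 to 7.38 times the FPKM of its dominant-negative relative Mcub (listed as Ccdc109b), or at 2.21 to 3.05 times per union exon length. Mcu was 2.98 to 3.80 times the exporter Slc8b1 in FPKM, and 1.57 to 2.00 times per union exon length. Stim1 had 0.313 to 0.433 of the FPKM of Orai1, lowest in wild type replicate 5, and 0.169 to 0.234 of its level per union exon length.

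The 6 ratios that were compared did not differ between the groups beyond the spread within them. The mean log2 ratio differed by 0.058 at most in size (Orai1 to Orai2). In exact permutation tests (two-sided, 3 hearts against 3) the p lay between 0.4 and 1, and adjusted over the 6 ratios between 0.96 and 1, where the smallest p this design allows is 0.1.

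**Figure D4:**
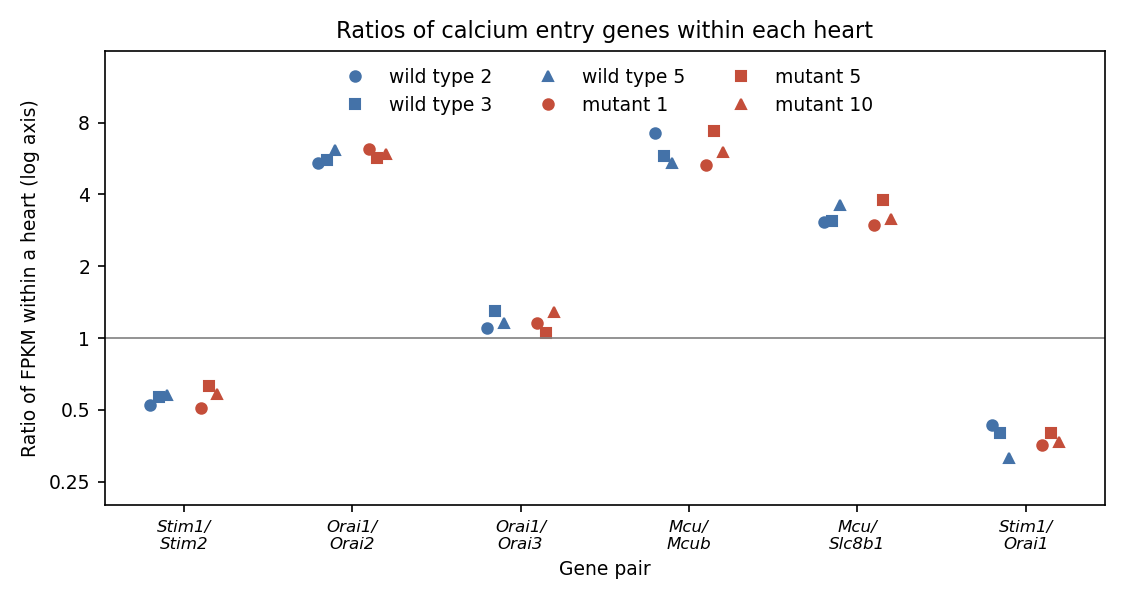
The ratio of FPKM of 2 genes within each heart, on a log axis with a line at 1, for 6 gene pairs (wild type blue, mutant red, marker shape for the heart). Red and blue points overlap in every pair, and Orai1 to Orai2 and Mcu to Mcub lie between 5.33 and 7.38.

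The further genes of the pathway were taken from lists of regulators, release channels, readers and mitochondrial calcium genes. Of their 66 genes, 65 were tested, and neither edgeR nor DESeq2 gave any of them an adjusted p under 0.05 (0 of 65 each). An unadjusted p under 0.05 was found in 2 of the 65 (background 5.73%), Nfatc2 and Plcg2, both higher in the mutant. In all, 48 of the 65 were higher in the mutant and 17 were lower, beside 8699 higher and 8774 lower of the 17473 genes tested. The difference in these shares was not tested. The median of their log2 fold changes was 0.068, beside −0.0010 for all genes. The count of pathway genes with an unadjusted p under 0.05 was 6 without wild type replicate 5 (Cracr2b, Jph4, Nfatc2, Pdp1, Plcg2 and Rcan1, of which 5 were higher in the mutant). It was 1 without mutant replicate 5, and 0 without mutant replicate 10. The background of 5.73% belongs to the fit of all 6 hearts. The share of all genes was not taken in the fits with a heart left out, so these counts have no background beside them.

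**Figure D5:**
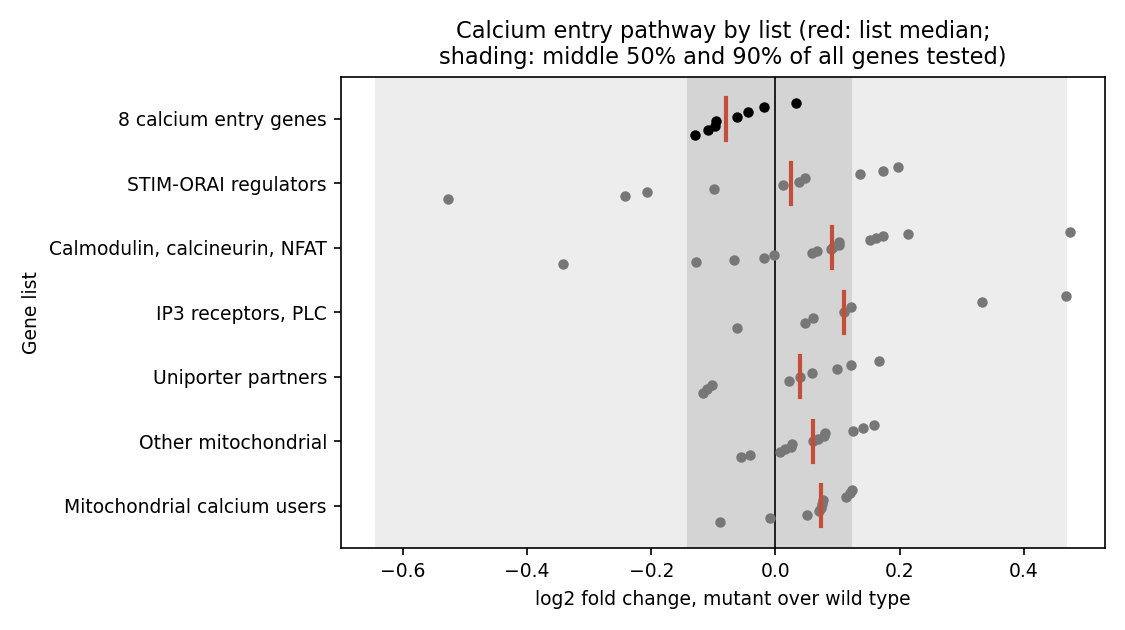
The log2 fold change of mutant over wild type for each tested gene of the 8 calcium entry genes (black) and of 6 pathway lists (grey), with the list median as a red line and the ranges of all 17473 genes tested as shading. The black points lie closer to 0 than the extremes of the lists of regulators and readers, whose lowest and highest values are −0.53 and 0.47. The −0.53 belongs to Jph4, at 28 to 161 counts per heart (standard error 0.49).

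Among 10 regulators of STIM and ORAI, 6 were higher and 4 lower, with log2 fold changes of −0.53 to 0.20. The lowest was that of Jph4, a gene with 28 to 161 counts per heart and a standard error of 0.49. Saraf, which encodes a reticulum protein that closes the channel, had 73.7 ± 5.33 FPKM in wild type and 74.6 ± 2.44 FPKM in mutant hearts (SD, n = 3 per group). The log2 difference was 0.047 (standard error 0.11).

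The release side holds the IP3 receptors, which empty the store, and the phospholipases that make IP3. Of these 7 genes 6 were higher in the mutant. Itpr1 had a log2 fold change of 0.061 (standard error 0.22), Itpr3 one of 0.12 (standard error 0.20) and Itpr2 one of 0.33 (standard error 0.18, edgeR adjusted p = 0.939). Itpr1 ranged from 12.7 FPKM in wild type replicate 5 to 24.1 FPKM in wild type replicate 2, and the mutant hearts stood at 17.2 to 21.9 FPKM. Wild type replicate 3 had 20.98 FPKM, so wild type replicate 5 was the only control heart below them.

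Plcg2, a phospholipase C of immune cells and platelets, had 3.90, 3.39 and 2.21 FPKM in wild type replicates 2, 3 and 5 and 4.04, 4.61 and 4.19 FPKM in mutant replicates 1, 5 and 10. Each mutant heart was above each wild type heart. The log2 difference of 0.47 (standard error 0.19) had an unadjusted edgeR p of 0.0412 and an adjusted p of 0.847, and was 0.27 without wild type replicate 5. The unadjusted p was above 0.05 in 7 of the 15 alternatives, 0.112 being the largest (mutant replicate 5 left out).

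Among 16 readers of entering calcium (calmodulins, CaM kinases, calcineurin, NFAT factors and the calcineurin regulators), 11 were higher and 5 lower. Nfatc2, an NFAT factor of lymphoid and other cells, had 5.17, 5.35 and 3.80 FPKM in wild type replicates 2, 3 and 5 and 5.89, 6.67 and 6.89 FPKM in mutant replicates 1, 5 and 10. The groups did not overlap. Here the log2 difference was also 0.47 (standard error 0.15), with an unadjusted edgeR p of 0.0137 and an adjusted p of 0.688. It was 0.34 without wild type replicate 5, and the unadjusted p was 0.0583 without mutant replicate 10.

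Macrophage and platelet markers had higher sums in the mutant, as these 2 genes did, although none passed an adjusted p of 0.05 in edgeR. The 10 macrophage markers summed to 99.1 to 147 CPM in wild type and 170 to 181 CPM in mutant hearts, and of the 9 tested 8 were higher with an unadjusted p under 0.05. The 8 platelet markers summed to 22.2 to 34.1 CPM in wild type and 37.3 to 53.2 CPM in mutant hearts, with 5 higher at an unadjusted p under 0.05. No marker of either list was at 0 in all hearts, and their part in the values of Nfatc2 and Plcg2 was not tested. The 8 endothelial markers were all higher in the mutant (median log2 difference 0.29), although their sums overlapped between the groups (834 to 1233 CPM in wild type, 1099 to 1378 CPM in mutant hearts). The sums of the cardiomyocyte (21880 to 26735 and 24549 to 27275 CPM), epicardial (265 to 493 and 289 to 526 CPM), erythroid, neural and foregut lists also overlapped. The 8 epicardial markers moved both ways, 5 higher and 3 lower, with log2 fold changes of −1.10 to 0.96. Of them, 2 were higher and 1 lower with an unadjusted edgeR p under 0.05 (background 5.73%). The 8 fibroblast genes summed to 2213 to 3162 CPM in wild type and 3172 to 4479 CPM in mutant hearts. Of these genes 6 were higher and 2 lower (median log2 difference 0.13), with 2 at an unadjusted edgeR p under 0.05, both higher. Erythroid sums were 37152 CPM in wild type replicate 5 and 39220 CPM in mutant replicate 10, against 11567 to 14630 CPM in the remaining hearts. Foregut sums were 18.6 CPM in wild type replicate 5 and 17.1 CPM in mutant replicate 5, against 1.40 to 6.23 CPM in the remaining hearts.

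Of 9 partners of the uniporter, 6 were higher and 3 lower, all within 0.17 of 0 (log2). Micu3, the gate known from neurons, had 3.97 ± 0.558 FPKM in wild type and 3.61 ± 0.526 FPKM in mutant hearts (SD, n = 3 per group), with a log2 difference of −0.11 (standard error 0.16). Mcub was low, with 83 to 120 counts per heart and a log2 fold change of −0.12 (standard error 0.23).

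Mcur1, a proposed assembly factor of the uniporter, had a log2 fold change of 0.17 (standard error 0.095, edgeR adjusted p = 0.946), with each mutant heart above each wild type heart. Groups did not overlap in 6 of the 65 pathway genes, beside 11.2% of all genes tested. Smdt1, the short transcript that encodes EMRE, ranged from 268 to 332 FPKM in 5 hearts and reached 436 FPKM in wild type replicate 5. A neighbour on the same strand, Pheta2, covers 16.6% of its exon bases.

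The mitochondrial genes outside the uniporter gave no unadjusted p under 0.05. Of 13 tested (proton exchange, porins, carriers and tethers), 11 were higher by 0.16 or less, and the exchanger gene Letm1 had a log2 fold change of 0.027 (standard error 0.13). Among 10 genes of enzymes and carriers that calcium activates, such as Idh3a, Ogdh and Slc25a12, 8 were higher and 2 lower, with log2 fold changes of −0.089 to 0.12.

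For 7 of the 8 genes, the gene with the most similar profile was sought among the other 17472 genes tested, by the root mean square difference of centred log2 CPM over the 6 hearts. They were Fyn for Stim1, Edc4 for Stim2, Cdca4 for Orai1, Ap1g2 for Orai2, Ttc19 for Orai3, Tdp1 for Mcu and Szrd1 for Micu2, at 0.017 to 0.027. The 8 genes themselves deviated from their means by 0.078 to 0.167 on the same measure.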

How the data were processed

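Reads were trimmed, aligned with STAR (mm10, GRCm38) and, where mapped once, assigned to genes by the authors with featureCounts per the methods, while the labels name HTSeq. The strand setting is not given in the sources used here. They deposited unnormalized counts per gene. Each deposited FPKM was found to be a count over the heart's total count and over 1 length kept for that gene, and the authors' method for them is not given in the sources used here. The authors' deposited group means of FPKM were not used, and 0 columns of sample values were left unmapped.

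Counts were compared with edgeR 4.0.16 in R 4.3.3 (quasi-likelihood test, TMM, filterByExpr with minimums of 10 counts and of 15 in total, two-sided without covariates, adjusted p under 0.05 over all genes). The alternatives used DESeq2 1.42.0 and limma 3.58.1. Intervals are at 95%, and CPM are TMM-scaled. The fits were tested on simulated data. Mcub and Maip1 were matched by gene ID. The genes and lists were chosen with earlier results of these data known. The genes named were Wt1, Tnnt2, the 8 genes, their direct partners, list genes with an unadjusted p under 0.05, and the most alike genes. Some planned values (2 ratios, 1 partner and 1 most alike gene) are not reported here. Any other gene was named with its values known. Depth was 44244665 to 56373393 counts per heart. For genes with low counts, such as Orai2 and Mcub, counting error is a large part of the spread between hearts.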

Additional observations from a re-analysis of the deposited data

How the results depend on the processing

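In each of 15 alternatives the number of calcium entry genes with an adjusted p under 0.05 was 0, and so was the number with an unadjusted p under 0.05. Of 120 fold changes recomputed, 5 changed sign, all with 1 heart left out. Genes called over the whole table numbered 133 with DESeq2, 34 without a filter on low counts, 6 with the trend of gene length corrected, and 0 to 44 with 1 heart left out, where 44 was without wild type replicate 5, and the cause was not tested. Pathway genes with an unadjusted p under 0.05 numbered 1 on log2(FPKM + 1), 1 on log2(FPKM + 0.1), 1 with the level of Xist as a covariate, and 0 to 6 with 1 heart left out, and the cause was not tested. The share of all genes under 0.05 was not taken in these alternatives. With 1 heart left out the log2 fold change ran from −0.013 to 0.11 in Micu2, −0.12 to 0.024 in Orai1 and −0.094 to 0.068 in Orai3, and the group difference in log2 ratio from −0.026 to 0.12 in Stim1 to Stim2, −0.10 to 0.050 in Orai1 to Orai3, −0.11 to 0.14 in Mcu to Mcub, −0.080 to 0.10 in Mcu to Slc8b1, and −0.16 to 0.076 in Stim1 to Orai1. Per union exon length the median log2 ratio of Orai1 to Orai3 was −0.037 rather than 0.21, since the lengths differ. No paired analysis was made, because the sources used here do not pair any mutant heart with a control heart. Replicate number 5 occurs in both groups and was not read as a pair. With 3 hearts per group, a difference within the intervals given could be missed. An interval without 0 was not enough for a call either. That of Nfatc2 ran from 0.13 to 0.82 (log2), with an edgeR adjusted p of 0.688.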
